A study of Mus musculus with 6 samples.

Results

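Bone morphogenetic protein (BMP) signalling was followed here through 10 genes: the ligands Bmp2, Bmp4, Bmp6 and Bmp7, the receptors Bmpr1a and Bmpr2, the antagonists Grem1 and Nog, and the target genes Id1 and Id3. They were chosen by name and are 10 of 36870 symbols in the expression table. RNA-seq had been performed on bone marrow mesenchymal stem cells (BMMSCs), the adherent cells grown out of the marrow of C57BL/6 mice, in 3 control libraries and in 3 others whose cells had received siRNAs to both Tet1 and Tet2 (siTet1/Tet2). Tet enzymes oxidise methylated cytosine in DNA, and the comparison asks which transcripts differ when both are depleted. Non-adherent cells had been removed at 48 h and the rest grown for 14 further days. The control cells received non-targeting siRNA by the treatment protocol, whereas the sequencing methods call them vehicle-treated. The labels give the cells as passage 2 and the methods as passage 1. No source says that the 3 libraries of a group came from separate cultures or animals, so p-values measure the spread between these libraries, which may be technical.

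BMP ligands are secreted dimers that bring together type I receptors, such as Bmpr1a, and type II receptors, such as Bmpr2. The type I receptor then phosphorylates SMAD proteins, which enter the nucleus and switch on targets such as the Id genes, while Gremlin 1 and Noggin bind ligands outside the cell and keep them from the receptors. In marrow stroma the pathway is best known for driving osteoblast differentiation.

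Of the 10 BMP genes, 7 were lower in siTet1/Tet2 cells, none was called higher, Bmp2 and Bmpr2 were not called, and Bmp7 was too low to test. These 7 calls held under every scaling of the libraries tried except centring on stromal markers, given with the markers further on. The genes that fell were the ligands Bmp4 and Bmp6, the type I receptor Bmpr1a, the antagonists Grem1 and Nog, and the targets Id1 and Id3. Values are RPKM, read numbers divided by gene length and by library depth, and the test was limma on log2(RPKM + 1) with Benjamini-Hochberg adjustment over the 13266 genes that averaged 0.1 RPKM or more. Over all those genes 29.8% were called lower and 14.7% higher at an adjusted p under 0.05. With a fold change over 2 on that scale and an unadjusted p under 0.05, the study's thresholds for an altered gene, 2 BMP genes (Bmpr1a and Id1) were lower and none higher, beside 5.63% of all tested genes lower and 0.95% higher. The median log2 fold change was -0.42 over the 9 BMP genes tested and -0.09 over all genes tested. These fold changes understate the change of low genes, so ratios of group means are given as well. A single gene in 3 against 3 libraries cannot give an exact permutation p under 0.1.

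**Figure D1:**
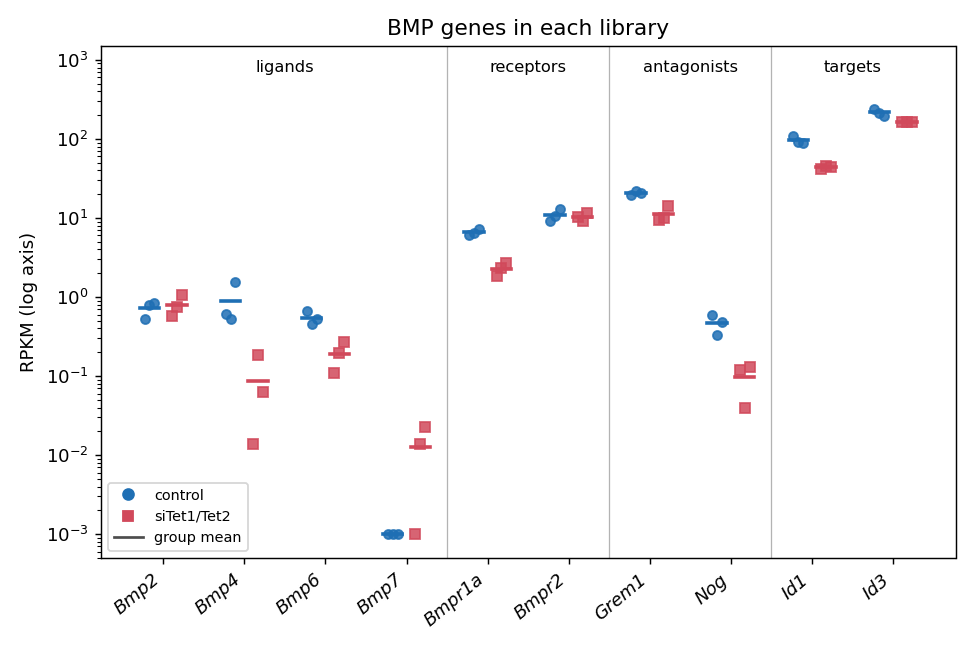
RPKM on a log axis of the 10 BMP genes in each control library (circles) and each siTet1/Tet2 library (squares), with group means as lines. The groups lie apart in Bmp4, Bmp6, Bmpr1a, Grem1, Nog, Id1 and Id3 and overlap in Bmp2 and Bmpr2, and Bmp7 stands at 0.001 RPKM, the lowest listed value, in all 3 control libraries. The share of all tested genes whose groups lie apart is not given here, so these separations have no background to be read against.

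The targeted genes were checked first. Tet2 was listed at 2.57, 4.08 and 3.71 RPKM in control libraries 1 to 3 and at 0.358, 0.238 and 0.202 RPKM in siTet1/Tet2 libraries 1 to 3, a log2 fold change of -1.80 (limma, Benjamini-Hochberg adjusted p = 2.88e-05). Tet1 was at most 0.098 RPKM in any library and was not tested. Read totals are not in the table, and the depth estimated from the steps between low values was 32400000 to 38500000 reads per library. Replicates correlated with r of at least 0.992. The share of called genes that were lower depended on scaling: it was 66.9% as deposited, 50.4% after median ratio scaling and 42.1% after quantile normalization, and the median log2 change across the genes tested moved from -0.09 to 0.01 and 0.06. The 7 BMP genes were called lower under each of these.

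The cell identity in the labels was compared with marker genes. Stromal collagen was abundant in control cells, where Col1a1 stood at 394.2 to 654.7 RPKM, but Thy1, Lepr and Lum, other stromal markers, were at most 0.146 RPKM in every library. Macrophage genes were more abundant than stromal genes: Lyz2, which encodes lysozyme, stood at 3547 to 5013 RPKM in control and 9842 to 12728 RPKM in siTet1/Tet2 libraries. Of 15 stromal markers 12 were tested and 11 fell, and their summed level was 1036 to 1593 RPKM in control and 132 to 278 RPKM in siTet1/Tet2 libraries. All 12 macrophage markers were tested, 7 rose and 3 fell, and their summed level was 6396 to 8474 RPKM in control and 14007 to 17144 RPKM in siTet1/Tet2 libraries. Without Lyz2 that sum was 2848 to 3461 and 4165 to 4463 RPKM, and the median macrophage marker stood at 225.1 to 228.6 and 211.9 to 231.2 RPKM. Of 10 endothelial markers 7 were tested, 3 rose and 2 fell, and their summed level was 5.31 to 6.37 RPKM and 8.39 to 9.14 RPKM, with Cldn5 at the lowest listed value in 5 of 6 libraries. Without Vwf the endothelial sum went the other way, from 3.48 to 4.21 RPKM in control to 2.41 to 2.86 RPKM in siTet1/Tet2 libraries. The part of these shifts in the BMP results was not tested, and in bulk RNA fewer cells of a type cannot be told apart from less RNA per cell.

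Among the ligands, Bmp4 and Bmp6 fell and Bmp2 did not pass the test. The ranges of Bmp2, Bmp4 and Bmp6 overlapped in control libraries, and Bmp2 lay above the other ligands in every siTet1/Tet2 library. Bmp4, a ligand of the Bmp2 and Bmp4 branch of the family, lies on chr14:46383520-46390669, minus strand (GRCm38, as are all positions here). It was listed at 0.601, 0.527 and 1.534 RPKM in control libraries 1 to 3, and at 0.014, 0.183 and 0.062 RPKM in siTet1/Tet2 libraries 1 to 3. Every control library was above every siTet1/Tet2 library, and control library 3 stood well above the other two. By estimate these values rest on 47, 36 and 103 reads in control and on 1, 15 and 5 reads in siTet1/Tet2 libraries. The mean was 0.887 ± 0.561 RPKM in control and 0.0863 ± 0.0871 RPKM in siTet1/Tet2 cells (SD, n = 3 each), a ratio of 10.3 and a log2 fold change of -0.76 (SE 0.18, limma, Benjamini-Hochberg adjusted p = 0.00935). The size of that ratio rested on single libraries, since it was 6.53 without control library 3 and 23.4 without siTet1/Tet2 library 2.

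The window around the annotated start of Bmp4 is shown because it had the largest fall in ratio among the BMP genes and because Tet enzymes act on cytosines of CG pairs. DNA methylation was not measured in these libraries. The sequence is from RefSeq (GRCm38.p6), 250 bases before to 50 bases after the start, chr14:46390620-46390919, read on the minus strand, with CG pairs in capitals. It holds 12 CG pairs, and 39.6% of 32851 RefSeq windows of this length hold as many or more. Its last 50 bases lie in annotated exon.
Bmp4 promoter: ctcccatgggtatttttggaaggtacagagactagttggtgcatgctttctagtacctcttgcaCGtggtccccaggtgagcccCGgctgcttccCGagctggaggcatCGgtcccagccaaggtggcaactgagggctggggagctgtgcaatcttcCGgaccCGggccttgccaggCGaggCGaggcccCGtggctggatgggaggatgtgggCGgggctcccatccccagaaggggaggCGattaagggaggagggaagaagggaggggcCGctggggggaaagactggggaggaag

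Bmp6, a ligand of the Bmp5 to Bmp8 branch that also controls hepcidin in the liver, lies on chr13:38345107-38500302, plus strand. It was listed at 0.674, 0.449 and 0.524 RPKM in control libraries and at 0.108, 0.193 and 0.269 RPKM in siTet1/Tet2 libraries. The groups did not overlap. The ratio of means was 2.89 and the log2 fold change -0.38 (SE 0.08, limma, Benjamini-Hochberg adjusted p = 0.00612), on an estimated 53 to 91 reads per control library and 15 to 34 reads per siTet1/Tet2 library.

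Bmp2, a strong inducer of bone formation, lies on chr2:133552159-133562885, plus strand. It was listed at 0.523, 0.800 and 0.829 RPKM in control libraries and at 0.582, 0.738 and 1.074 RPKM in siTet1/Tet2 libraries, and the groups overlapped. The log2 fold change was 0.062 with a 95% interval of -0.21 to 0.33 (limma, Benjamini-Hochberg adjusted p = 0.696). Its sign turned without control library 1 (-0.022) and without siTet1/Tet2 library 3 (-0.046), and quantile normalization gave a call of 0.28 (adjusted p = 0.0437). Bmp7, a ligand with roles in kidney and bone, lies on chr2:172868012-172940321, minus strand. It stood at the lowest listed value of 0.001 RPKM in all 3 control libraries and at 0.001, 0.014 and 0.023 RPKM in siTet1/Tet2 libraries, the last on an estimated 3 reads.

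Summed over the 4 ligands, control libraries held 1.80, 1.78 and 2.89 RPKM and siTet1/Tet2 libraries 0.705, 1.13 and 1.43 RPKM. Bmp2 made up 29.1%, 45.0% and 28.7% of that sum in control libraries and 82.6%, 65.4% and 75.2% in siTet1/Tet2 libraries, so the groups were apart in its share. This share covers these 4 ligands only and leaves out Bmp5, which lay above each of them in every control library. Bmp5 was at 2.37, 2.23 and 3.15 RPKM in control and at 0.472, 0.623 and 0.858 RPKM in siTet1/Tet2 libraries.

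Of the receptors, the type I chain fell and the type II chain did not pass the test. Bmpr1a, which encodes the kinase also called ALK3 that phosphorylates SMADs, lies on chr14:34410734-34503341, minus strand. It was listed at 6.09, 6.45 and 7.26 RPKM in control libraries and at 1.85, 2.34 and 2.67 RPKM in siTet1/Tet2 libraries. The lowest control value was more than 2 times the highest siTet1/Tet2 value. The means were 6.60 ± 0.596 and 2.29 ± 0.414 RPKM (SD, n = 3 each), a ratio of 2.89, and the log2 fold change was -1.21 (SE 0.12, limma, Benjamini-Hochberg adjusted p = 9.61e-05), the largest fall on this scale among the 10 genes.

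Bmpr2, the type II receptor that activates Bmpr1a, lies on chr1:59763400-59879014, plus strand. It was listed at 9.10, 10.7 and 12.8 RPKM in control libraries and at 10.2, 9.24 and 11.7 RPKM in siTet1/Tet2 libraries, with overlapping groups. The log2 fold change was -0.055 with a 95% interval of -0.35 to 0.24 (limma, Benjamini-Hochberg adjusted p = 0.753). Apart from stromal centring, it turned positive after median ratio scaling (0.057) and quantile normalization (0.10). It did so as well without control library 3 (0.062) and without siTet1/Tet2 library 2 (0.019). A ratio within a library does not depend on how the library is scaled: Bmpr1a over Bmpr2 was 0.669, 0.604 and 0.565 in control libraries and 0.181, 0.253 and 0.229 in siTet1/Tet2 libraries, with the groups apart.

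Both antagonists fell, except under centring on the stromal markers. Grem1, which encodes Gremlin 1, a secreted inhibitor that binds Bmp2, Bmp4 and Bmp7 proteins, lies on chr2:113746164-113758646, minus strand. It was the most abundant secreted factor among the 10 genes, at 19.5, 21.9 and 20.4 RPKM in control libraries and at 9.40, 10.1 and 14.4 RPKM in siTet1/Tet2 libraries. The groups did not overlap, and siTet1/Tet2 library 3 was nearest to control. The means were 20.6 ± 1.21 and 11.3 ± 2.69 RPKM (SD, n = 3 each), a ratio of 1.83 and a log2 fold change of -0.83 (SE 0.14, limma, Benjamini-Hochberg adjusted p = 0.00174).

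Nog, which encodes Noggin, lies on chr11:89300638-89302332, minus strand. It was listed at 0.596, 0.328 and 0.480 RPKM in control libraries and at 0.121, 0.040 and 0.132 RPKM in siTet1/Tet2 libraries. The groups did not overlap. The ratio of means was 4.79 and the log2 fold change -0.42 (SE 0.08, limma, Benjamini-Hochberg adjusted p = 0.00403), on an estimated 18 to 38 reads per control library and 3 to 8 reads per siTet1/Tet2 library. Grem1 over the summed 4 ligands was 10.8, 12.3 and 7.06 in control libraries and 13.3, 8.94 and 10.1 in siTet1/Tet2 libraries. The groups overlapped in this ratio, which covers these 4 ligands only. It leaves out Bmp5, a further ligand given below, which fell from 2.59 to 0.651 RPKM.

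Because Grem1 had the higher level of the 2 antagonists among the 10 genes, its window is shown as well. It is taken from RefSeq (GRCm38.p6) at chr2:113758599-113758898, read on the minus strand, with CG pairs in capitals, and 48 of its bases lie in annotated exon. It holds 28 CG pairs, and 14.2% of windows hold as many or more.
Grem1 promoter: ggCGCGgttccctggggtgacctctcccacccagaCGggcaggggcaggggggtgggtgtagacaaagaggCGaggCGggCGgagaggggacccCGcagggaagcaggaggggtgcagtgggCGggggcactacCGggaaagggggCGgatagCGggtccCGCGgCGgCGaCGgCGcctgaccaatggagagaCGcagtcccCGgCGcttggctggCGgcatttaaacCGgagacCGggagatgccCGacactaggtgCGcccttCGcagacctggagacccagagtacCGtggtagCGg

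Windows were given for 6 of the 10 genes. Their CG pairs numbered 12 in Bmp4, 19 in Id3, 23 in Bmpr2, 27 in Bmp6, 28 in Grem1 and 48 in Bmpr1a, against a median of 7 over all windows. The windows are not alike in position, since those of Bmp6, Bmpr2 and Id3 lie in annotated exon over all 300 bases and that of Bmpr1a over 191. The letters GGCGCC, a GC-rich motif of SMAD proteins that reads alike on both strands, occurred once each in Bmpr1a, Bmpr2 and Grem1 and in 11.9% of all windows. The letters GTCTAGAC, the palindromic SMAD motif, occurred in none of the 6 windows and in 0.21% of all windows.

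The targets Id1 and Id3 encode inhibitors of DNA binding, which pair with bHLH transcription factors and keep them off DNA. They were the most abundant of the 10 genes, and both fell, except under centring on the stromal markers. Id1 lies on chr2:152736251-152737410, plus strand, and was listed at 108.9, 92.3 and 88.1 RPKM in control libraries and at 41.5, 45.7 and 43.9 RPKM in siTet1/Tet2 libraries. The groups were far apart and the siTet1/Tet2 libraries close together. The means were 96.4 ± 11.0 and 43.7 ± 2.13 RPKM (SD, n = 3 each), a ratio of 2.21 and a log2 fold change of -1.12 (SE 0.09, limma, Benjamini-Hochberg adjusted p = 3.48e-05).

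Id3 lies on chr4:136143497-136145755, plus strand, and was listed at 241.8, 211.4 and 194.6 RPKM in control libraries and at 164.9, 161.6 and 161.5 RPKM in siTet1/Tet2 libraries. The groups did not overlap, although the fall was smaller. The ratio of means was 1.33 and the log2 fold change -0.40 (SE 0.08, limma, Benjamini-Hochberg adjusted p = 0.00525). Id1 over Id3 was 0.450, 0.437 and 0.453 in control libraries and 0.251, 0.283 and 0.272 in siTet1/Tet2 libraries, lower in each siTet1/Tet2 library than in any control library.

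**Figure D2:**
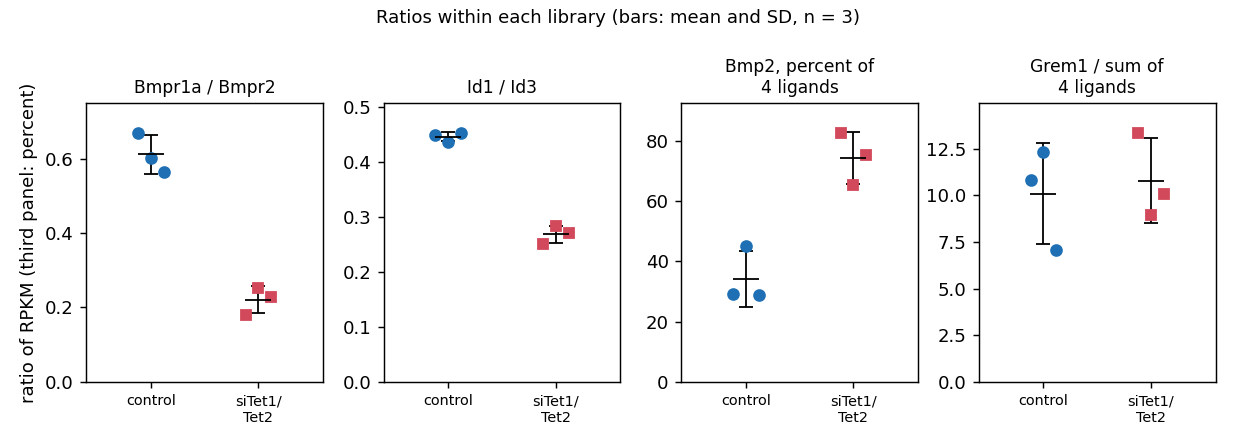
Ratios of RPKM within each library (points) for Bmpr1a over Bmpr2, Id1 over Id3, Bmp2 as a percent of the 4 ligands, and Grem1 over the summed 4 ligands, with mean and SD (n = 3). Control and siTet1/Tet2 libraries are apart in the first 3 panels and overlap in the Grem1 panel.

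These ratios set the genes of a role side by side without any scaling between libraries. The type I to type II receptor ratio had a mean of 0.613 ± 0.0527 in control and 0.221 ± 0.0366 in siTet1/Tet2 libraries, and the Id1 to Id3 ratio 0.447 ± 0.00872 and 0.269 ± 0.0160 (SD, n = 3 each). Bmp2 as a share of the 4 ligands had means of 34.3% and 74.4%, whereas Grem1 over the 4 ligands had means of 10.1 ± 2.71 and 10.8 ± 2.28.

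By level, the order in control cells was Id3, Id1, Grem1, Bmpr2 and Bmpr1a, each apart from the next, then Bmp4, Bmp2, Bmp6 and Nog, whose neighbouring ranges overlapped, then Bmp7. In siTet1/Tet2 cells Id3 and Id1 still led, Grem1 and Bmpr2 had overlapping ranges, and Bmpr1a and Bmp2 followed, each apart from the next. Bmp6, Nog, Bmp4 and Bmp7 came last, with overlapping neighbours.

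The rest of the pathway was described through 56 further genes in 5 roles, of which 43 were tested. Of these 28 fell, 5 rose and 10 did not pass the test, beside 29.8% of all tested genes called lower and 14.7% higher. These shares also stand beside the counts by role below. Of the 43 genes 12 were altered lower and 1 altered higher, beside 5.63% and 0.95% of all tested genes. Centring on the stromal markers gave 2 lower and 26 higher at an adjusted p under 0.05, beside 92.8% of all genes tested called higher. The median log2 fold change of the 43 genes was -0.43. Of 10 further BMP and GDF ligands 3 were tested, and Bmp5 and Gdf6 fell, Bmp5 from 2.59 to 0.651 RPKM (log2 fold change -1.12, limma, Benjamini-Hochberg adjusted p = 0.000206).

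Of 11 further receptors and coreceptors 9 were tested, 6 fell and 1 rose. Among the falls, the call of Rgmb was lost in 6 of 17 alternatives other than stromal centring (limma, adjusted p up to 0.147). Tgfbr3, the coreceptor betaglycan, fell from 8.08 ± 1.77 to 0.867 ± 0.111 RPKM (SD, n = 3 each), a log2 fold change of -2.27. Neo1, which encodes neogenin, a receptor for repulsive guidance molecules, fell by 1.49 on the log2 scale, and Eng, the coreceptor endoglin, fell from 23.8 to 15.6 RPKM. The one that rose was Acvrl1, the type I receptor ALK1, from 9.95 to 13.2 RPKM (log2 fold change 0.38, limma, Benjamini-Hochberg adjusted p = 0.00302), opposite in direction to the type I receptor Bmpr1a.

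Of 16 further antagonists and extracellular modulators 12 were tested, 10 fell and 1 rose. Among the falls, the call of Chrd, which encodes chordin, was lost in 6 of 16 alternatives other than stromal centring (limma, adjusted p up to 0.119). Fstl1, a secreted protein related to follistatin, fell from 101.1 ± 10.0 to 19.5 ± 6.91 RPKM (SD, n = 3 each), a log2 fold change of -2.37 (limma, Benjamini-Hochberg adjusted p = 6.81e-05). Bmp1, a protease that cleaves procollagens and the antagonist chordin and is no ligand, fell from 42.8 to 9.02 RPKM, and Fst, which encodes the activin- and BMP-binding follistatin, from 4.81 to 0.809 RPKM. Bambi, a receptor-like protein without a kinase that blocks signalling, rose from 1.90 to 4.21 RPKM (log2 fold change 0.85, limma, Benjamini-Hochberg adjusted p = 0.000731).

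Of 9 genes of SMAD signalling, all tested, 4 fell, 1 rose and 4 did not pass the test. Among the falls, Smad1 was not called after quantile normalization (limma, adjusted p = 0.0732). Smad4 was not called after median ratio scaling or quantile normalization (limma, adjusted p up to 0.0903). Smurf2, a ubiquitin ligase for SMADs and the highest of the list, stood at 26.1 and 22.8 RPKM with overlapping groups (log2 fold change -0.20, limma, Benjamini-Hochberg adjusted p = 0.135). The one that rose was Ski, a SMAD corepressor, by 0.33 on the log2 scale, a call lost without control library 1 or 2 or siTet1/Tet2 library 1 or 3, and when libraries were scaled to 1 common sum (adjusted p = 0.0951).

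Of 10 further BMP targets, all tested, 6 fell, 2 rose and 2 did not pass the test. Id4 fell from 3.73 to 0.603 RPKM and Atoh8, a bHLH factor, from 6.63 to 1.10 RPKM, log2 fold changes of -1.58 and -1.89. Hey1, a bHLH repressor that is a target of Notch as well as of BMP, rose from 1.27 ± 0.0810 to 6.47 ± 0.852 RPKM (SD, n = 3 each), a log2 fold change of 1.72 (limma, Benjamini-Hochberg adjusted p = 1.10e-05). It was the one pathway gene altered higher in the main fit. With a pseudocount of 0.1 or 0.01, after quantile normalization and by the ratio of means, 2 pathway genes were altered higher. Over all genes tested the share altered higher was then 2.19%, 2.77%, 1.58% and 2.71%, against 0.95% in the main fit. Id2 rose from 222.9 to 283.0 RPKM (log2 fold change 0.34, adjusted p = 0.0427), a call lost without control library 1 or 3 or siTet1/Tet2 library 1 or 2, with no filter on low values, with centring on the macrophage markers and with eBayes without trend (adjusted p up to 0.147). Id1 over Id2 had a mean of 0.435 in control and 0.156 in siTet1/Tet2 libraries, with the groups apart.

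**Figure D3:**
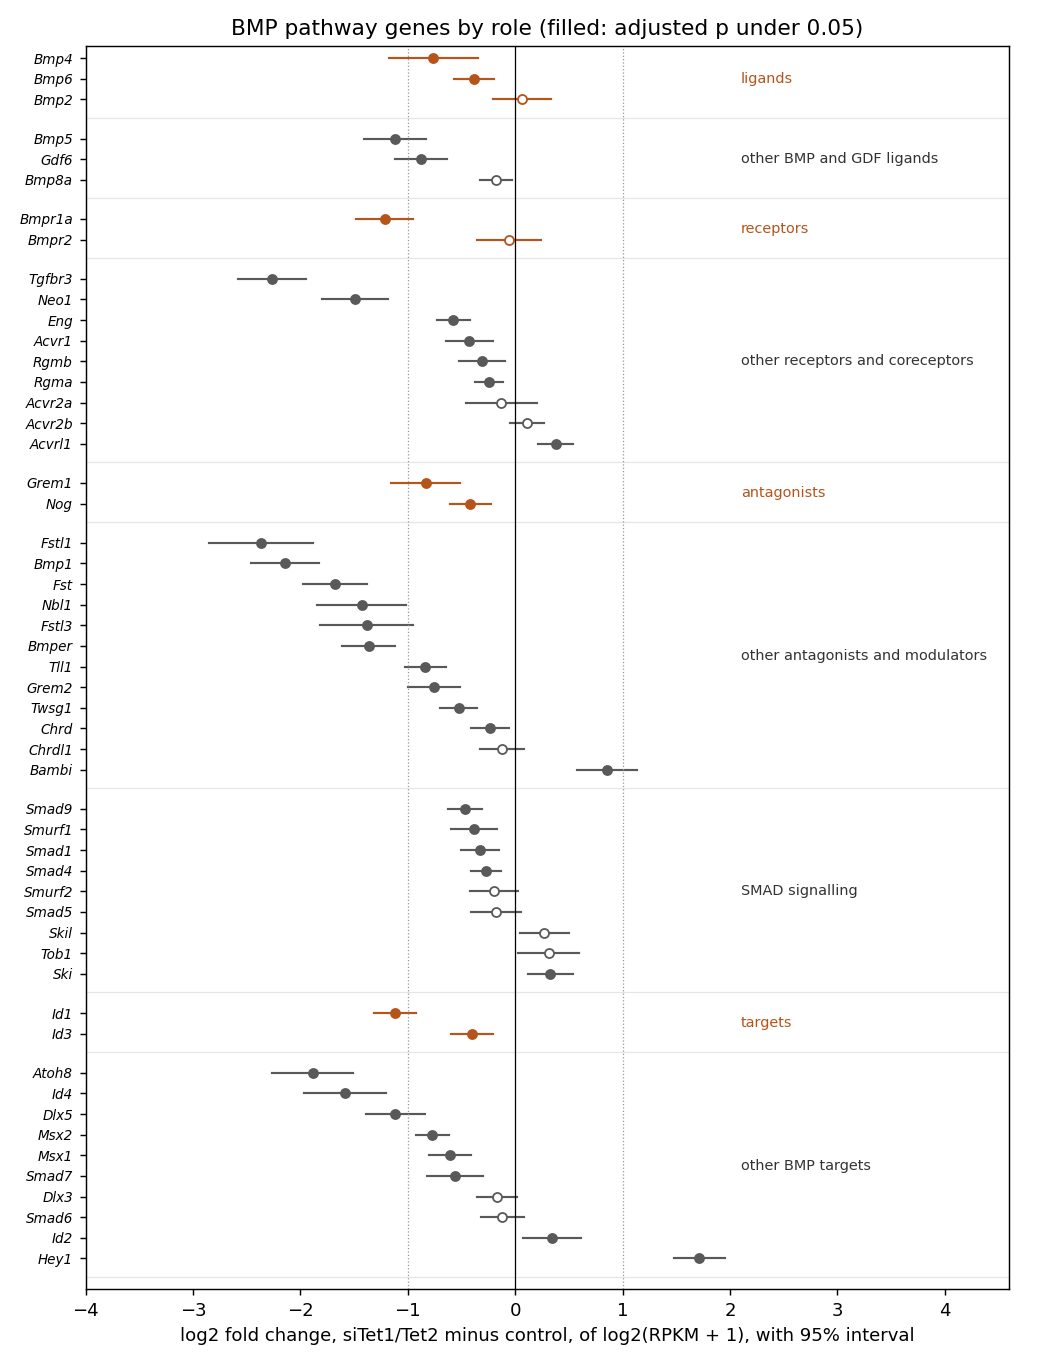
Log2 fold change of log2(RPKM + 1), siTet1/Tet2 minus control, with 95% interval, of the tested BMP pathway genes by role, the 9 tested genes of the set of 10 in orange and filled points at an adjusted p under 0.05. Most filled points lie below 0, and Hey1 at 1.72 and Bambi at 0.85 are the highest.

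Stromal markers moved in the same direction as most BMP genes. The median log2 ratio of group means was -1.14 over the 9 tested BMP genes, -0.98 over the 43 further pathway genes, -2.53 over the 12 tested stromal markers, 0.24 over the 12 macrophage markers and -0.12 over all genes tested. By that ratio 11 of the 12 stromal markers fell more than Bmpr1a, Grem1, Bmp6 and Id1, 8 fell more than Nog, and 1 fell more than Bmp4. Set against Pdgfra, a receptor of stromal cells that went from 9.92 to 0.944 RPKM, Bmpr1a was at 0.641, 0.746 and 0.625 times its level in control libraries and at 2.30, 2.50 and 2.44 times in siTet1/Tet2 libraries. Grem1 was at 2.05, 2.53 and 1.76 times and at 11.7, 10.8 and 13.1 times that level. The size of these rises depends on the marker chosen. Pdgfra had the largest fall of the 12 tested stromal markers, a log2 ratio of group means of -3.39. Prrx1 was at -1.63 and Nt5e at -0.51 by that ratio, near and above Bmpr1a at -1.53. When each library was centred on the stromal markers, the median log2 change across genes became 2.08 and 92.8% of all genes tested were called higher, beside 7 of the 9 BMP genes tested and none of them lower. Against that median Bmp4 was at -2.25, Nog at -2.02, Bmp6 at -1.84, Bmpr1a at -1.27, Bmp2 at -0.93, Id1 at -0.67, Grem1 at -0.52, Id3 at 0.07 and Bmpr2 at 0.19. These offsets depend on level as well, because 1 was added to the scaled RPKM, which shrinks the change of low genes. By the log2 ratio of group means Bmp2 was at 0.15, above the median of -0.12 over all genes tested. Bmp6 and Bmpr1a were both at -1.53 by that ratio.

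**Figure D4:**
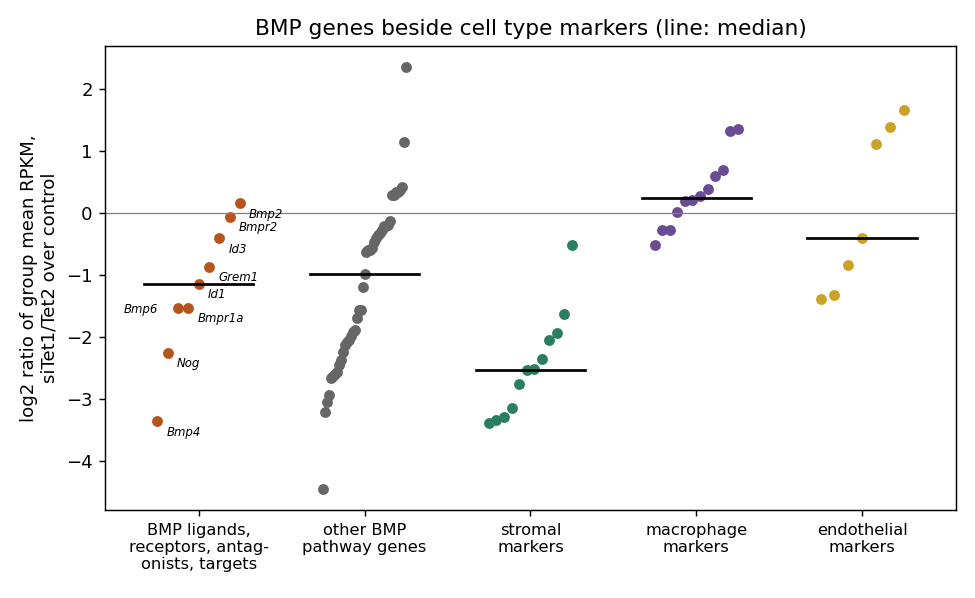
Log2 ratio of group mean RPKM, siTet1/Tet2 over control, of each tested gene (points) among the BMP genes, the other pathway genes and the markers of 3 cell types, with medians as lines. The median of the BMP genes (-1.14) lies between those of the stromal markers (-2.53) and the macrophage markers (0.24), but the genes are split. Bmp2, Bmpr2 and Id3 lie within the range of the macrophage markers (-0.52 to 1.35). The other BMP genes lie within that of the stromal markers (-3.39 to -0.51), with Bmp4 near its lower end.

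The genes nearest in pattern to the 3 BMP genes with the lowest p were found by the distance between profiles of log2(RPKM + 1) over the 6 libraries, each centred on its mean, among 11067 genes averaging 1 RPKM or more. They were Trip6 (0.0991) and Pld4 (0.130) for Id1, Znhit6 (0.102) and Hmga2 (0.104) for Bmpr1a, and Npnt (0.153) and Schip1 (0.156) for Grem1.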

How the data were processed

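Total RNA of 6 libraries was sequenced as paired-end reads. The authors mapped the reads with DNASTAR Lasergene, to GRCm38 per the submitters' processing notes, and deposited 1 table of linear RPKM values (FPKM in the methods), with a column of their own p-values, which was not used. The annotation release and the use of strand are not given in the sources used here. The table has 36915 rows, and 37 symbols occur repeatedly, each represented by its row of highest mean.

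Log2(RPKM + 1) was compared between the groups with limma 3.58.1 in R 4.3.3 (lmFit, eBayes with trend, two-sided, Benjamini-Hochberg adjustment) in genes averaging 0.1 RPKM or more, after the script was tested on simulated data. The BMP genes and all lists were chosen with earlier results of these data known. All 10 were named, as were up to 8 other pathway genes altered without overlap, by absolute log2 fold change, and the highest of each role by control mean. Gdf6, Acvrl1, Bambi, Ski, Rgmb, Chrd, Smad1 and Smad4, and the within-library ratios, were chosen after their values were seen. Adgre1 was found under its older symbol Emr1.

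Python 3.11.15 with numpy 2.4.6 and pandas 2.3.3 served to estimate depth, taken as the read total that best turns low values of genes with 1 transcript into whole reads. Between 50.3% and 56.0% of those values then lay within 0.1 of a whole number, where 20% is expected at a fixed depth, so read numbers are estimates and no count test was run. Positions are from GENCODE M21.

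Deviations of same-numbered libraries from their group means correlated with 0.149, 0.117 and 0.462 for replicates 1, 2 and 3, and the numbers were therefore used as a block in an alternative fit. No source says what a number stands for, and control 1 with siTet1/Tet2 2 reached 0.332. The other alternatives were pseudocounts of 0.1 and 0.01, no filter, a mean of at least 1 RPKM, scaling to the same sum, median ratio scaling, quantile normalization, centring on stromal or (added after seeing the data) macrophage markers, eBayes without trend, leaving out each library, summed repeated rows and the ratio of means. Protein sequences are not used here.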

Additional observations from a re-analysis of the deposited data

How the results depend on the processing

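The 7 falls (Bmp4, Bmp6, Bmpr1a, Grem1, Nog, Id1 and Id3) stayed lower at an adjusted p under 0.05 (limma) in every alternative that tested them except centring on the stromal markers. A mean of at least 1 RPKM left 5 BMP genes to test, and 4 were called. The count of altered BMP genes, 2 as reported, was 5 with a pseudocount of 0.1, 5 with 0.01, 5 with the ratio of means and 1 after median ratio scaling, where Id1 was at -0.998 and fell short of the fold threshold. Over all genes tested the share altered lower moved likewise, from 5.63% to 10.8%, 12.0%, 11.8% and 4.98%. Of the other pathway genes 13 were altered, and 21 with a pseudocount of 0.1, 23 with 0.01 and 22 with the ratio of means. Fitting the replicate block called the same 7 BMP genes and changed no call among the 10, and it called 35 other pathway genes against 33. Calls rose over all genes tested as well, from 29.8% to 33.7% lower and from 14.7% to 16.9% higher.

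Centring on the stromal markers altered 5 BMP genes and 21 other pathway genes, all higher, beside 80.2% of all genes tested, and reversed the log2 fold change of Bmp6 (0.23), Bmpr1a (0.81), Bmpr2 (2.26), Grem1 (1.56), Nog (0.052), Id1 (1.40) and Id3 (2.15). Bmp4 was then at -0.17 (adjusted p = 0.13). The construction of this scaling moved the median of all genes to 2.08, and 0.853% of called genes were lower, against 66.9% as deposited, 50.4% after median ratio scaling and 42.1% after quantile normalization. Bmpr2 was at 0.057 after median ratio scaling and 0.10 after quantile normalization. Leaving out single libraries gave -0.046 to 0.15 for Bmp2 and -0.17 to 0.062 for Bmpr2.

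Depth limits Bmp7 and the siTet1/Tet2 levels of Tet1, Bmp4 and Nog, which rest on an estimated 15 reads or fewer per library. RPKM gives no error of counting, reads shared between near-identical paralogs were not separated here, and the composition of the cultures was not measured apart from the marker genes.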
